A study of Mus musculus with 19 samples.

Results

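The 33 genes described here were taken by name from a list of postsynaptic scaffold and kinase genes, out of 24130 Ensembl genes listed in at least 1 library. They comprise 21 scaffolds of excitatory synapses, the inhibitory synapse scaffold gephyrin, 10 protein kinases and the calmodulin-binding protein neurogranin. RNA came from the primary somatosensory cortex (S1) of 8 male C57BL/6 mice (C57BL/6J in the study's methods) aged 56 days, for which no treatment or mutation is named. The cortex was cut by hand with a scalpel into 6 slices, labelled A at the pial side to F next to the white matter, and polyadenylated RNA was sequenced from 7 libraries. According to the labels, A held mostly layers 1, 2 and 3, and the others were mostly layer 4 (B), layer 5 (C and, below it, D), layer 6 (E) and layer 6b (F). Only B was sequenced in replicate, as B1 and B2, each a pool of 4 littermates; every other library pooled all 8 mice, so that libraries share animals and no SD between mice can be given for A, C, D, E or F.

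An excitatory synapse holds a dense protein layer under its membrane, the postsynaptic density. There, Dlg proteins anchor glutamate receptors, Dlgap proteins tie Dlg to Shank, and Shank and Homer reach on to metabotropic receptors and the actin skeleton. Ca2+ entering through NMDA receptors binds calmodulin, which activates CaMKII, the most abundant kinase of the density and a trigger of synaptic potentiation; neurogranin holds calmodulin when Ca2+ is low. Isoforms of protein kinase C act beside it, and gephyrin clusters GABA-A and glycine receptors at inhibitory synapses.

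Levels are FPKM, fragments per kilobase of transcript model, scaled by the authors to the mapped fragments of each library, with the deposited 95% interval, which covers counting and assignment error but no variation between mice. Estimated depth was lowest in A (31.6 M fragments) and highest in B2 (75.6 M). Mitochondrial genes took 21.8% of the summed FPKM in A and 18.2% in B2, against 7.76% in B1 and 5.03% to 9.79% in C to F. This share thus differed between the replicates of layer 4 too. Library A stood apart from the rest in the sum of 7 pan-neuronal markers, which was 1479 FPKM in A against 2344 to 3196 FPKM elsewhere. Taken singly, 5 of the 7 were lowest in A and 1 was highest in A. Over the 11409 genes whose widest interval spanned at most 50% of their mean FPKM (called classifiable here), the median fitted difference between F and A was 0.47 on the log2 scale, so a gene at that value merely kept pace with the others. With libraries rescaled by their median ratio to the geometric mean this median was 0.07, and directions below are given under both scales where they part. The sum of 3 pyramidal cell markers was 447 FPKM in A and 475 to 855 FPKM elsewhere, and those of astrocyte and microglia markers lay between 632 and 846 FPKM and between 58.2 and 103 FPKM. All 8 oligodendrocyte markers were lowest in A and highest in F, and their sum went from 319 FPKM in A to 12193 FPKM in F. In bulk slices, fewer cells of a type and less RNA per cell cannot be told apart.

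All 33 genes were listed in all 7 libraries, and 31 were classifiable; Grip1 and Camk2d were not, because their intervals were wide. By the limma F-test of a linear and quadratic trend over segment position, 15 of the 31 changed across segments, against 43.5% of all classifiable genes, so the share was close to the background. The fitted difference between F and A passed its own test in 12 of the 31. It was positive for 7 (Dlg1, Dlg2, Grip2, Pick1, Gphn, Prkcb and Prkce) against 35.5% of all genes, and negative for 5 (Nrgn, Dlgap3, Camk2a, Prkca and Homer2) against 6.59% of all genes. After median-of-ratios scaling 3 were higher in F (Dlg1, Grip2 and Gphn; 16.6% of all genes) and 9 were lower (12.2%), the additions being Shank1, Dlgap2, Sipa1l1 and Camkk2. Without A, the difference between F and B was positive and called for 2 (Prkce and Baiap2; 12% of all genes) and negative and called for 2 (Camk2a and Prkca; 3.73%). Fitted differences of 20 of the 31 lay below the median of all genes, and their median was -0.02. The median over the 20 classifiable excitatory scaffolds was -0.09 and that over the 9 classifiable kinases was 0.25, both lower than the 0.47 of all genes; under median-of-ratios scaling they were -0.52 and -0.17.

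**Figure D1:**
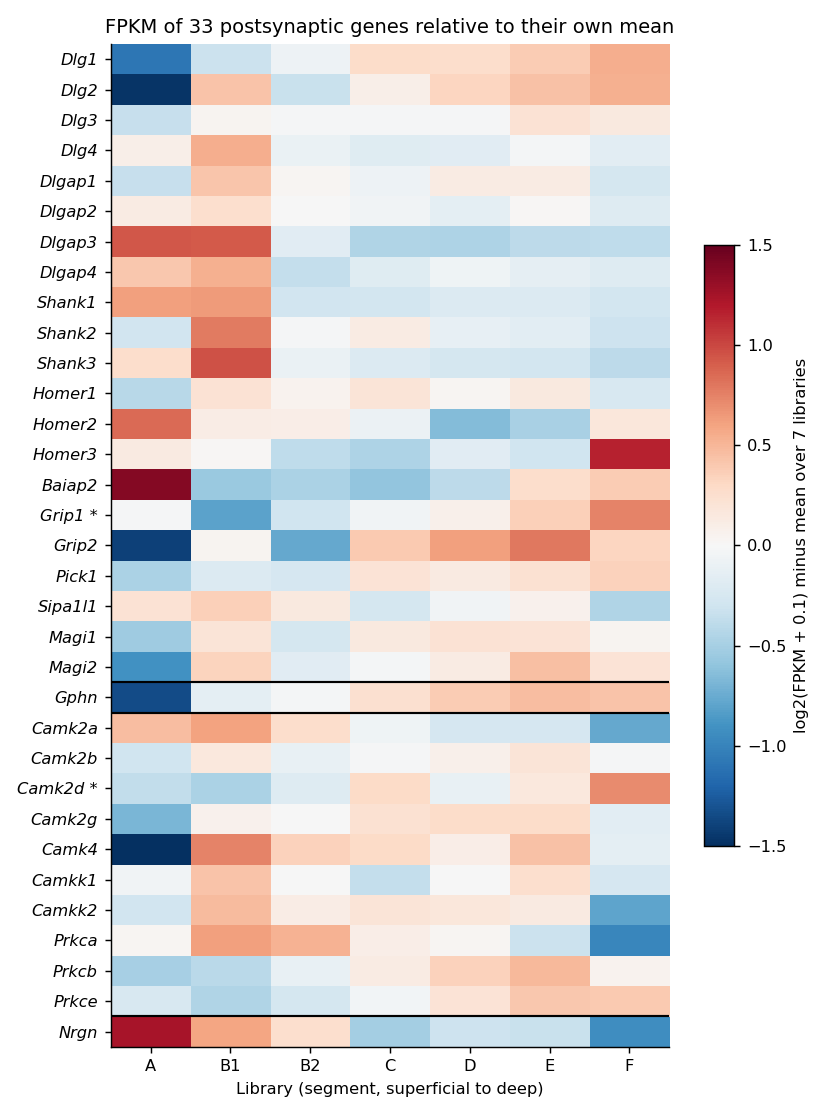
Level of each of the 33 genes (rows) in the 7 libraries (columns), as log2(FPKM + 0.1) minus the gene's mean over the libraries, with colours that end at 1.5 in both directions. Black lines part excitatory scaffolds, gephyrin, kinases and neurogranin, and asterisks mark the 2 genes that were not classifiable; Nrgn and Camk2a are red on the left and blue on the right, Dlg1, Dlg2, Gphn and Grip2 are darkest blue in A, and B1 is redder than B2 for most scaffolds.

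The lowest fitted difference was that of neurogranin (Nrgn, chr9:37352550-37360294 in mm9), the most abundant of the 33 transcripts. Nrgn measured 4621 FPKM in A, 2958 in B1 and 2329.6 in B2, then 1375 in C, 1573 in D and 1558 in E, and 1028 in F. Every deeper segment lay under both B libraries, which in turn lay under A, and 36.1% of its expression was in A against 8.03% in F. The fitted difference F minus A was -1.84 ± 0.33 (SE; adjusted p = 0.00618) on the log2 scale, and 18 of 19 other settings gave the same call, the exception being the fit without A (difference F minus B of -1.09, adjusted p = 0.0813). The only listed Nrgn transcript is 785 nt long. Nrgn therefore kept its deposited values in the setting over transcripts of at least 1000 nt, which is no separate check for it. The 2 replicates of layer 4 differed by less than the step on either side of them, with B1 1.27 times B2. Over the same segments the summed oligodendrocyte markers went up from A to F and the summed pan-neuronal markers were lowest in A, where Nrgn was highest; their part in the declines of Nrgn and of Camk2a was not tested.

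CaMKII is assembled from subunits of separate genes, of which Camk2a (alpha) and Camk2b (beta) dominate in the forebrain. Camk2a measured 991 FPKM in A, 1091 in B1 and 857 in B2, then 684 in C, 604 in D and 602 in E, and 420.2 in F. The 3 upper libraries all lay above the 4 deeper ones, and F was lowest, 2.36-fold under A. Its fitted difference was -1.25 ± 0.24 (SE; adjusted p = 0.00756), and it was lower in the deep segments in each of the 19 other settings, with values between -1.67 and -0.90. The value of -0.90 is E minus A, from the fit without F. Camk2b measured 143 FPKM in A, 196 in B1 and 163 in B2, then 174 in C, 185 in D and 200.3 in E, and 173 in F. Its highest and lowest libraries, E and A, were 1.40-fold apart, no trend was called (adjusted p = 0.344), and its fitted difference of 0.25 changed sign to -0.17 under median-of-ratios scaling.

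Because both genes are read from the same library, their ratio does not depend on scaling, and their GC contents were near equal (55.1% and 55.9%). The ratio of Camk2a to Camk2b was 6.94 in A, 5.55 in B1 and 5.26 in B2, then 3.94 in C, 3.26 in D and 3.01 in E, and 2.43 in F. It was lower in every deeper segment than in the one above, and the step from B to C was larger than the gap between B1 and B2. This ratio was chosen after its values were seen and is given as a description. Camk2g, the gamma subunit, measured 53.1 FPKM in A, 89.5 in B1 and 85.7 in B2, then 101 in C, 104 in D and 104 in E, and 77.1 in F. It was low at both ends and highest in D and E, and it passed the F-test (adjusted p = 0.0174) while its difference between F and A did not (0.46, adjusted p = 0.0805). Camk2d, the delta subunit, lay between 6.27 FPKM in B1 and 14.4 FPKM in F and was not classifiable, so the main fit left it out. With the interval limit widened to 100% of the mean it was called higher in F (0.96), and without a filter it was not called.

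The sum of all 10 kinases was 1575 FPKM in A, 1859 in B1 and 1594 in B2, then 1493 in C, 1490 in D and 1559 in E, and 1174 in F. Camk2a supplied 62.9% of that sum in A, 45.8% in C and 35.8% in F. Without it the other 9 summed to 584 FPKM in A, 768 in B1 and 737 in B2, then 809 in C, 886 in D and 957 in E, and 754 in F. The full sum was highest in B1 and lowest in F, and the sum without Camk2a was highest in E and lowest in A.

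All 3 protein kinase C genes on the list passed both tests, and their directions differed. Prkca (PKC alpha, chr11:107794701-108205242 in mm9) measured 22.4 FPKM in A, 33.7 in B1 and 31.6 in B2, then 23.6 in C, 22.5 in D and 17.5 in E, and 11.04 in F. Both B libraries were above all others and F was below all others, and the fitted difference was -1.21 ± 0.24 (SE; adjusted p = 0.00924); it stayed negative in all 19 other settings and kept its call in 17, not in the linear fit or without F. Prkcb (PKC beta, chr7:129432265-129777916 in mm9) measured 165 FPKM in A, 176 in B1 and 215 in B2, then 252 in C, 296 in D and 326 in E, and 242 in F. Prkce (PKC epsilon) measured 95.1 FPKM in A, 82.6 in B1 and 93.6 in B2, then 109 in C, 130.3 in D and 149.5 in E, and 148 in F. Both were highest in E, with fitted differences of 0.79 ± 0.22 (SE; adjusted p = 0.0281) for Prkcb and 0.87 ± 0.21 (SE; adjusted p = 0.0173) for Prkce, which exceed the median of all genes by 0.32 and 0.40. Neither was called under median-of-ratios scaling, without mitochondrial genes in the total or with GC content adjusted. Prkcb kept its call in 10 of 19 other settings, losing it also in the linear fit and without A, B2, C, D or E, and Prkce kept it in 15 of 19, losing it also without E. Without A, Prkce was still higher in F than in B (0.77, adjusted p = 0.0286).

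The ratio of Prkca to Prkcb, which scaling does not touch either, was 0.136 in A, 0.192 in B1 and 0.147 in B2, then 0.0933 in C, 0.0758 in D and 0.0535 in E, and 0.0456 in F. As deposited, the B replicates were higher than A and than each deeper segment, and every segment from C on was lower than the one above it. The order of A and B2 depended on a 770-nt Prkcb transcript (19.1 FPKM) with an entry in A alone. Without it Prkcb measured 146 FPKM in A, and the ratio in A lay above that in B2. The gap between B1 and B2 was also larger than that between B2 and A. GC contents were 46.9% for Prkca and 50.3% for Prkcb. This ratio too was chosen after its values were seen.

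The 250 bases upstream of the annotated start are shown for Nrgn, Prkca, Prkcb and Gphn, since these are genes of opposite direction within a family or at the 2 kinds of synapse, each with a single promoter entry in RefSeq (GRCm38.p6). Capitals mark matches, on either strand, to GGGCGG (a GC box) and CANNTG (an E-box); TGACG was searched too and had no match in the 4. Matches to different motifs do not overlap in these sequences.
Nrgn: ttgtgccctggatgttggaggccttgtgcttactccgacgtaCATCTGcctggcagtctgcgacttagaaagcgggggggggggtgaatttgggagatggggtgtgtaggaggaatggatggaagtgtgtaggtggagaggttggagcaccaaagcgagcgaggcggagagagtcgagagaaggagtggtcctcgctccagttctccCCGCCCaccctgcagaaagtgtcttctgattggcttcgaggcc
Prkca: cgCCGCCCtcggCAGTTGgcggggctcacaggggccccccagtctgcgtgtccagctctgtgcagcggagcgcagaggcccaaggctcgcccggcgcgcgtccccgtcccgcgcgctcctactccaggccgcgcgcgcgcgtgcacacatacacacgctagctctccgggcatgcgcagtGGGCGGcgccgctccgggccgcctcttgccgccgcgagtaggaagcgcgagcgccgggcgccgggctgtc
Prkcb: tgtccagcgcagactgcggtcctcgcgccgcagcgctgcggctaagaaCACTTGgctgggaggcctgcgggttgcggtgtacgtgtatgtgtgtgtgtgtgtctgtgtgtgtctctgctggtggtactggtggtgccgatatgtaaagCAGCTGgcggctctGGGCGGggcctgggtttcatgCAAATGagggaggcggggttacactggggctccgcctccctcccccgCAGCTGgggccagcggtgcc
Gphn: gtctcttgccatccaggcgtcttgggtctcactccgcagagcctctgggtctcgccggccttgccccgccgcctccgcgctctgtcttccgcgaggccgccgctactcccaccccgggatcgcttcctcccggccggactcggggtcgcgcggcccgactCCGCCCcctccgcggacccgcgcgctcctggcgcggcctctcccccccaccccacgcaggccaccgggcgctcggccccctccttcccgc
The windows are chr9:37552746-37552995, minus strand (Nrgn), chr11:108343889-108344138, minus strand (Prkca), chr7:122288875-122289124, plus strand (Prkcb) and chr12:78226405-78226654, plus strand (Gphn), all GRCm38.p6 and written 5′ to 3′ on the gene's strand. All 4 hold at least 1 GC box, which 32.7% of all 32841 promoter windows of that length hold, and 3 of the 4 hold an E-box, against 66.2% of all windows. Prkcb has 4 E-box matches and Gphn none. Windows of 26 listed genes were counted (43 windows, so that some genes gave more than 1), and Camk2a and Camk4 were left out of this count. The other genes not counted had no window under their symbol with all bases known. Of the 43 windows, 51.2% held a GC box, 62.8% an E-box and 11.6% TGACG, the last against 17.8% of all windows. The 43 windows had a median GC content of 59.6% against 52.4% for all windows, and its part in the share with a GC box was not tested. These are letter matches only.

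**Figure D2:**
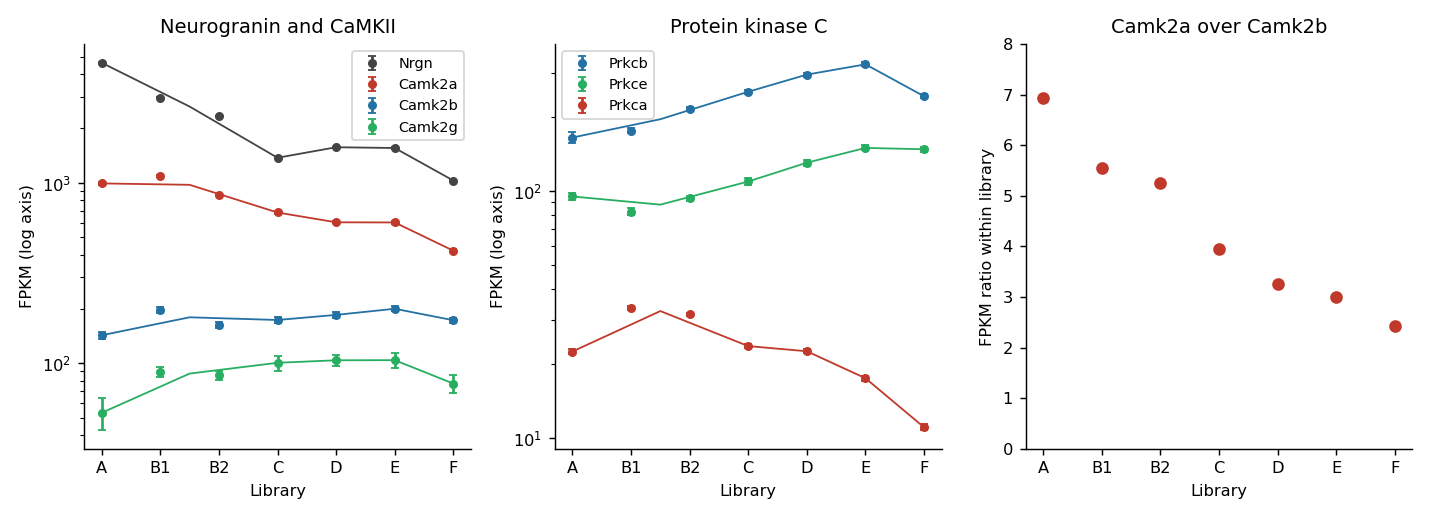
FPKM on a log axis (left and middle; points with deposited 95% intervals, lines through the segments with B as the mean of B1 and B2) and the ratio of Camk2a to Camk2b (right, linear axis from 0) in the 7 libraries. Nrgn and Camk2a decline from A to F while Camk2b and Camk2g do not, Prkca peaks in B and is lowest in F while Prkcb and Prkce peak in E, and the ratio goes from 6.94 in A to 2.43 in F.

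The CaMK cascade kinases had a different shape. Camkk2, an upstream kinase of CaMKI and CaMKIV, measured 66.1 FPKM in A, 112 in B1 and 86.5 in B2, then 91.5 in C, 90.2 in D and 88.3 in E, and 46.3 in F. It was lowest in F and highest in B1, and passed the F-test (adjusted p = 0.0342) but not the test of the difference (-0.48, adjusted p = 0.163). Camk4, a nuclear CaM kinase that phosphorylates CREB, measured 6.01 FPKM in A, 35.2 in B1 and 26.6 in B2, then 25.6 in C, 22.3 in D and 28.4 in E, and 18.9 in F, with A far under every other library and no call in either test. Camkk1 lay between 21.5 FPKM in C and 37.1 FPKM in B1 and was not called.

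Among the excitatory scaffolds, the Dlg genes did not share a direction. Dlg4, which encodes PSD-95, the main scaffold of the mature density, measured 321 FPKM in A, 443 in B1 and 284 in B2, then 267 in C, 270.01 in D and 297 in E, and 272 in F. Only B1 stood out, and that library held 119 FPKM of a 301-nt partial transcript; its fitted difference of -0.34 ± 0.29 (SE; adjusted p = 0.373) was not called. Dlg1 (SAP97) measured 18.6 FPKM in A, 31.5 in B1 and 37.4 in B2, then 47.8 in C, 47.3 in D and 51.2 in E, and 57.5 in F. Dlg2 (PSD-93) measured 18.9 FPKM in A, 70.9 in B1 and 41.9 in B2, then 56.1 in C, 66.01 in D and 71.6 in E, and 76.5 in F. A was lowest and F highest for both, although 20.1 FPKM of Dlg2 in F and 18.7 FPKM in B1 came from an 817-nt transcript with no entry elsewhere, without which F (56.4 FPKM) lay under E (71.6 FPKM). The genes had fitted differences of 1.36 ± 0.23 (SE; adjusted p = 0.00563) and 1.49 ± 0.42 (SE; adjusted p = 0.0273). Dlg1 kept its call in 16 of 18 other settings, and Dlg2 in 10 of 19; neither was called without A or with GC content adjusted, and Dlg2 also lost its call under both rescalings, in the linear fit, without a filter and without B2, C or E. Dlg3 (SAP102) stayed between 27.0 FPKM in A and 40.0 FPKM in E and was not called. Relative to one another, Dlg4 was 17.3 times Dlg1 in A, 14.1 times in B1, 7.59 times in B2 and 4.72 to 5.80 times in C to F, a ratio for which the B replicates were far apart.

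All Dlgap and Shank genes had negative fitted differences, of which that of Dlgap3 alone passed the test. Dlgap3 (SAPAP3), the most GC-rich of the 33 at 64.3%, measured 269.9 FPKM in A, 269 in B1 and 127 in B2, then 103 in C, 103 in D and 108 in E, and 109 in F. A and B1 were alike and far above the rest, but B2 was 2.13-fold under its replicate B1 and near the deep segments. Its fitted difference was -1.31 ± 0.39 (SE; adjusted p = 0.0344), which was called in 12 of 19 other settings, with GC content adjusted among them (-1.10), and not without A, C, D, E or F, in the linear fit or without a filter. Dlgap1 measured 132 FPKM in A, 224 in B1 and 172 in B2, then 159 in C, 184 in D and 184 in E, and 140.2 in F, with no call. Dlgap2 lay between 16.2 FPKM in F and 22.1 FPKM in B1, and Dlgap4 between 93.3 FPKM in B2 and 173 FPKM in B1.

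Shank1 measured 158 FPKM in A, 161 in B1 and 84.9 in B2, then 85.6 in C, 89.3 in D and 89.6 in E, and 85.1 in F. Shank3 measured 31.1 FPKM in A, 50.2 in B1 and 24.1 in B2, then 22.4 in C, 21.5 in D and 21.4 in E, and 19.7 in F. Shank2 measured 23.1 FPKM in A, 48.7 in B1 and 27.9 in B2, then 30.8 in C, 26.04 in D and 25.3 in E, and 22.9 in F. B1 was the highest library of all 3, F the lowest or, for Shank1, level with B2 and C, and B1 exceeded B2 by 1.90-fold, 2.08-fold and 1.74-fold. All 3 fitted differences were negative (-0.80, -0.87 and -0.38) and none was called (adjusted p of 0.0978, 0.124 and 0.43). With B1 and B2 averaged, so that their gap no longer entered the error, Shank1, Shank3 and Dlgap4 were called lower in F. In the same fit Magi1 and Magi2 were newly called higher in F.

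The Homer family had no common direction. Homer1, which carries both long scaffold and short activity-induced forms, measured 44.3 FPKM in A, 68.9 in B1 and 61.5 in B2, then 67.97 in C, 60.7 in D and 65.7 in E, and 50.3 in F and was not called, and its sign differed between scalings (0.07 as deposited and -0.35 after median of ratios). In A, transcripts under 1000 nt gave 33.2% of the Homer1 FPKM, and over longer transcripts its fitted difference was 0.43, with no call. Homer2 measured 18.2 FPKM in A, 10.8 in B1 and 10.7 in B2, then 9.47 in C, 6.35 in D and 7.13 in E, and 11.3 in F. It was highest in A and lowest in D, with a partial return in F, and its fitted difference was -0.81 ± 0.22 (SE; adjusted p = 0.0248); the call was lost in the linear fit and without A, D or E, and without A the difference between F and B was -0.06. Homer3 measured 2.47 FPKM in A, 2.27 in B1 and 1.705 in B2, then 1.61 in C, 1.99 in D and 1.802 in E, and 5.14 in F. F was 2.09 times the next library, A, the F-test was passed (adjusted p = 0.0289) and the difference was not (0.69, adjusted p = 0.117). Of 4 striatal markers listed, 3 were highest in F too, with a summed level of 30.4 FPKM in F against 7.83 to 26.9 FPKM elsewhere; their part in the Homer3 value was not tested.

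Other scaffolds bind AMPA receptors or signalling proteins. Grip2, an AMPA receptor binding protein, measured 0.949 FPKM in A, 2.74 in B1 and 1.53 in B2, then 3.54 in C, 4.14 in D and 4.69 in E, and 3.35 in F, with a fitted difference of 1.76 ± 0.30 (SE; adjusted p = 0.0056), the highest of the 31. It is a low transcript whose B replicates differed 1.79-fold, and it was called in 16 of 18 other settings, GC adjustment among them (1.81), but not in the linear fit or without A. Pick1, which binds both AMPA receptors and PKC alpha, measured 8.35 FPKM in A, 10.1 in B1 and 9.73 in B2, then 13.4 in C, 12.8 in D and 13.7 in E, and 14.8 in F. A to B2 lay under C to F, and its fitted difference of 0.79 ± 0.19 (SE; adjusted p = 0.015) was 0.32 above the median of all genes and was not called under either rescaling, with GC content adjusted or without A. Sipa1l1, a Rap GTPase activator that binds Dlg4, measured 88.7 FPKM in A, 98.3 in B1 and 84.6 in B2, then 63.9 in C, 73.6 in D and 79.8 in E, and 55.8 in F and had a fitted difference of -0.57 ± 0.26 (SE; adjusted p = 0.116). Baiap2, which links Shank to actin, measured 294 FPKM in A, 76.9 in B1 and 81.2 in B2, then 74.9 in C, 86.6 in D and 136 in E, and 147 in F. Its A value held 162 FPKM of a 360-nt partial transcript that has an entry in A and F alone; over transcripts of at least 1000 nt it measured 128 FPKM in A, 76.9 in B1 and 81.2 in B2, then 74.9 in C, 86.6 in D and 136 in E, and 124 in F. Its fitted difference of -0.16 ± 0.46 (SE; adjusted p = 0.794) was not called as deposited or in 17 of 18 other settings, the exception being the fit without A, where it was higher in F than in B (1.03, adjusted p = 0.0301). Grip1 lay between 2.47 FPKM in B1 and 7.42 FPKM in F, Magi1 between 8.40 FPKM in A and 14.2 FPKM in D, and Magi2 between 13.5 FPKM in A and 34.8 FPKM in E. Magi1 and Magi2 had no call as deposited, but both were called higher in F with B1 and B2 averaged and without B1. Grip1 was fitted only under wider filters. It was called higher in F with the interval limit at 100% of the mean (1.06) and not without a filter.

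Gephyrin (Gphn, chr12:79327721-79785725 in mm9), the one scaffold of inhibitory synapses, measured 6.42 FPKM in A, 14.8 in B1 and 16.1 in B2, then 19.4 in C, 21.5 in D and 22.7 in E, and 22.1 in F. A was less than any other library, and B1 and B2 lay under all deeper segments. The fitted difference was 1.43 ± 0.25 (SE; adjusted p = 0.006), 0.96 above the median of all genes; 15 of 18 other settings gave the call, and GC adjustment (0.65), the linear fit and the fit without A (0.50) did not. The sum of 5 interneuron markers was 282 FPKM in A, 361 in B1 and 361 in B2, then 517 in C, 556 in D and 432 in E, and 322 in F. This sum was lowest in A like Gphn, as were 3 of the 5 markers taken singly. Unlike Gphn, the sum was lower in F than in C, D or E. The sum of 3 pyramidal cell markers was lowest in A too (447 FPKM) and was 817 FPKM in E and 855 FPKM in F. That of 8 oligodendrocyte markers went from 319 FPKM in A to 12193 FPKM in F. The part of any of these markers in the Gphn difference was not tested.

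**Figure D3:**
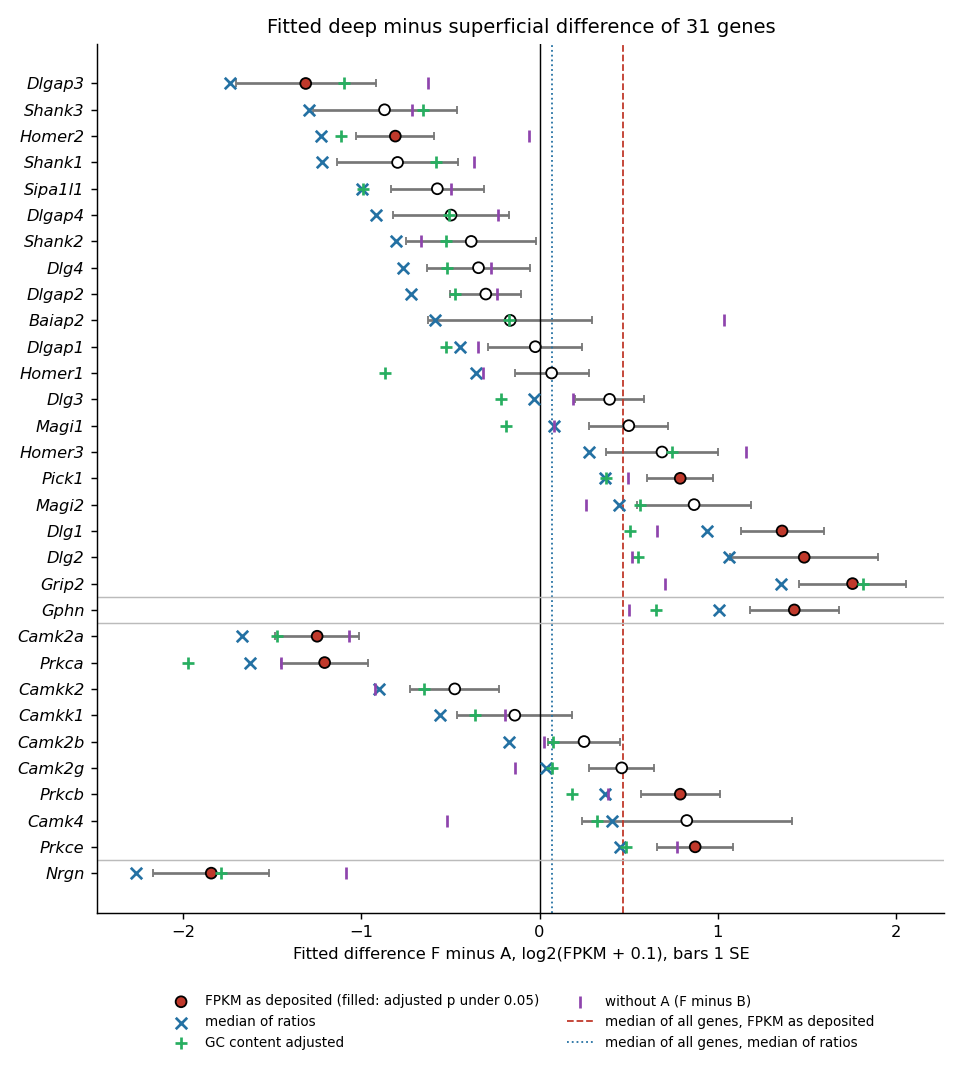
Fitted difference F minus A on the log2(FPKM + 0.1) scale for the 31 classifiable genes, sorted within class, with 1 SE (bars) and 3 other settings (crosses, plus signs and ticks). Filled points passed the test at an adjusted p of 0.05, dashed and dotted lines give the median of all genes as deposited (0.47) and after median-of-ratios scaling (0.07); Nrgn, Camk2a, Prkca and Dlgap3 lie left of 0 in all 4 fits, and Grip2, Dlg1, Dlg2 and Gphn lie right of 0 in all 4.

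Set side by side by share of expression, the scaffold medians ranged less widely than the kinase medians. Single scaffolds did not: their fitted differences ran from -1.31 to 1.76 (20 genes), and those of kinases from -1.25 to 0.87 (9 genes). The median log2 ratio of B2 to B1 was -0.43 for scaffolds and -0.27 for kinases. Excitatory scaffolds had a median share of 15.2% in A and 17.9% in B, then 15.9% in C, 16.03% in D and 17.4% in E, and 15.97% in F. Kinases had 13.5% in A and 19.7% in B, then 17.1% in C, 17.6% in D and 19.8% in E, and 14.3% in F. Over all classifiable genes the median share went from 12.4% in A to 18.2% in F. Of the 31 genes, 7 had their highest segment in A, 9 in B, 9 in E and 4 in F, and 14 had their lowest in A and 10 in F. Of all 11409 classifiable genes, 2383 had their highest segment in A, 910 in B, 2156 in E and 3640 in F. For 6394 of all these genes A was lowest, and for 1176 F was lowest. Scaffold FPKM summed to 1660 in A, 1847 in B1 and 1231 in B2, then 1206 in C, 1264 in D and 1379 in E, and 1278 in F, so the B replicates were farther apart than any 2 of the segments C to F. The ratio of summed scaffolds to summed kinases was 1.05 in A, 0.993 in B1 and 0.772 in B2, then 0.808 in C, 0.849 in D and 0.884 in E, and 1.09 in F. The values above 1 in A and F depended on short transcripts. Over transcripts of at least 1000 nt, scaffolds summed to 1308 FPKM in A, 1533 in B1, 1120 in B2 and 1103 in F. Kinases then summed to 1556 FPKM in A, 1859 in B1, 1594 in B2 and 1174 in F, and exceeded scaffolds in every library.

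Steps between neighbouring segments were read from intervals that do not overlap, with both B libraries required to lie on one side. Between A and both B libraries, 15 of the 31 were higher in B (42.6% of all classifiable genes) and 3 in A (Nrgn, Homer2 and Baiap2; 20.2%). From B to C, 9 were lower in C (7.7% of all genes) and 6 higher (29.6%). From C to D, 9 were higher in D (18.8%) and 5 in C (15.5%), and from D to E, 9 were higher in E (27.7%) and 2 in D (17.3%). From E to F, 14 were lower in F (25% of all genes) and 2 higher (Homer2 and Homer3; 28.7%). The 14 were Dlgap1, Homer1, Grip2, Sipa1l1, Magi2, Camk2a, Camk2b, Camk2g, Camk4, Camkk1, Camkk2, Prkca, Prkcb and Nrgn, which include 8 of the 9 classifiable kinases. The sum of pan-neuronal markers went from 2990 FPKM in E to 2344 FPKM in F and that of oligodendrocyte markers from 3988 FPKM to 12193 FPKM over the same step; their part in it was not tested. Between A and F themselves 28 of 31 did not overlap, 14 in each direction, against 85.2% of all genes, 60.8% higher in F and 24.4% higher in A.

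The 2 layer 4 libraries differed for many of these genes. For 24 of the 31 the B1 interval lay wholly outside that of B2 (66.4% of all genes); 22 of these 24 were higher in B1 (34.3% of all genes) and 2, Prkcb and Prkce, in B2 (32.1%). The median log2 ratio of B2 to B1 was -0.35 over the 31 genes and -0.0014 over all genes. It went down with GC content (Spearman's rho of -0.56 over the 31 genes and -0.56 over 10801 genes, genes sharing the same 2 libraries), and the 31 genes had a median GC content of 54.0% against 51.0% for all. The fitted difference between F and A went down with GC content too (rho of -0.51 over the 31 genes and -0.38 over all). With GC content adjusted, 1 of the 31 was higher in F (Grip2) and 7 were lower (Nrgn, Camk2a, Prkca, Dlgap3, Homer2, Homer1 and Sipa1l1), against 14.1% and 14.0% of all genes.

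**Figure D4:**
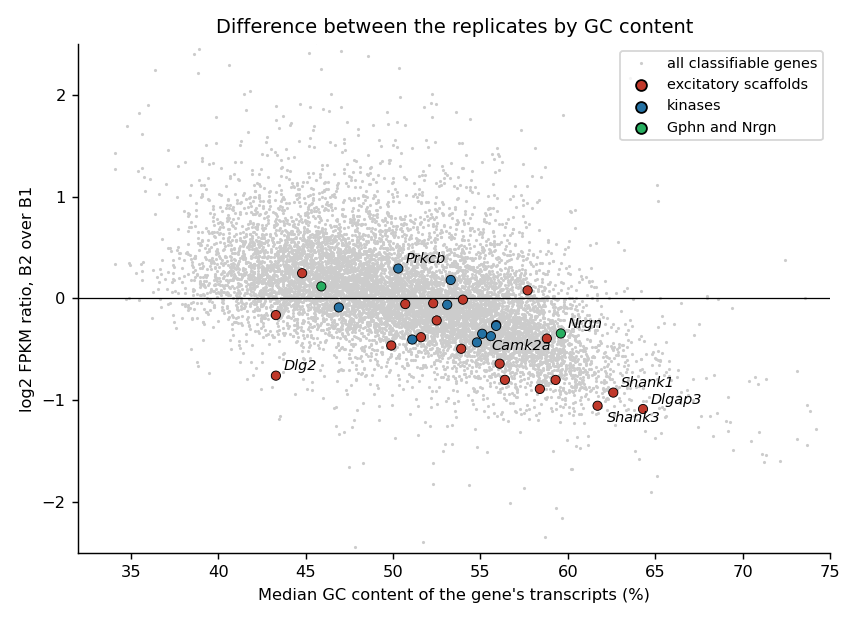
Log2 ratio of FPKM in B2 to that in B1 against the median GC content of a gene's transcripts, for all classifiable genes (grey; 65 lie outside the axes) and the 31 classifiable genes of the list (coloured by class). The ratio declines with GC content, and Dlgap3, Shank1 and Shank3 lie at the GC-rich, low end.

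Transcripts of a gene were counted as moving in opposite directions between 2 libraries when one form was up and a second form was down, with separate intervals for both. Where a library's file holds no row for a transcript, this is given as no entry; such transcripts were taken as 0 in the comparisons unless stated. Of 19 listed genes with at least 2 classifiable transcripts, 16 met this in some pair of libraries, against 81.9% of 1974 genes with at least 2 such transcripts, and 6 met it between the replicates B1 and B2, against 38.2%, so both counts were close to the background. Of the 19 genes, 3 (Camk2b, Camk2g and Baiap2) met it between F and each of B1 and B2 with both transcripts listed, against 8.92% of genes. F also held longer reads than B1 and B2, and the part of read length in these isoform values was not tested.

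For Camk2b, the 3999-nt transcript had 73.3 FPKM in A, 85.9 in B1 and 85.5 in B2, then 121 in C, 98.3 in D and 161 in E, and 133 in F, and the 3328-nt transcript had 64.7 FPKM in A, 89.2 in B1 and 63.3 in B2, then 37.3 in C, 60.9 in D and 22.6 in E, and 26.3 in F. The longer form was the higher one in A, B2 and C to F, and the intervals of the 2 forms overlapped in B1. For Camk2g, the 3535-nt transcript had 25.2 FPKM in A, 56.2 in B1 and 57.01 in B2, then 61.1 in C, 67.2 in D and 56.6 in E, and 31.9 in F, and the 3637-nt transcript had 15.7 FPKM in A, 6.84 in B1 and 19.5 in B2, then 27.4 in C, 23.3 in D and 32.6 in E, and 29.02 in F. The shorter Camk2g form was lower in F than in layer 4 and the longer one was higher, and the longer form was lower in B1 than in B2, with separate intervals. For Baiap2, the 3518-nt transcript had 66.5 FPKM in A, 61.2 in B1 and 49.6 in B2, then 36.5 in C, 47.9 in D and 47.3 in E, and 39.6 in F, and the 1669-nt transcript had 22.5 FPKM in A, no entry in B1 and 12.05 in B2, then 20.8 in C, 22.98 in D and 61.2 in E, and 52.9 in F. The Baiap2 form that was higher in F than in B1 with an entry in both was the 3398-nt transcript. It had 8.89 FPKM in B1, 13.2 in B2 and 26.4 in F. For Camk2a, the 4970-nt transcript had 904 FPKM in A, 697 in B1 and 652 in B2, then 459 in C, 402 in D and 376 in E, and 269 in F, and the 3244-nt transcript had 87.3 FPKM in A, 393 in B1 and 205 in B2, then 225 in C, 202 in D and 226 in E, and 151 in F. The longer Camk2a form was lower in each segment than in the one above, and the shorter one was lowest in A and differed 1.92-fold between the replicates.

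**Figure D5:**
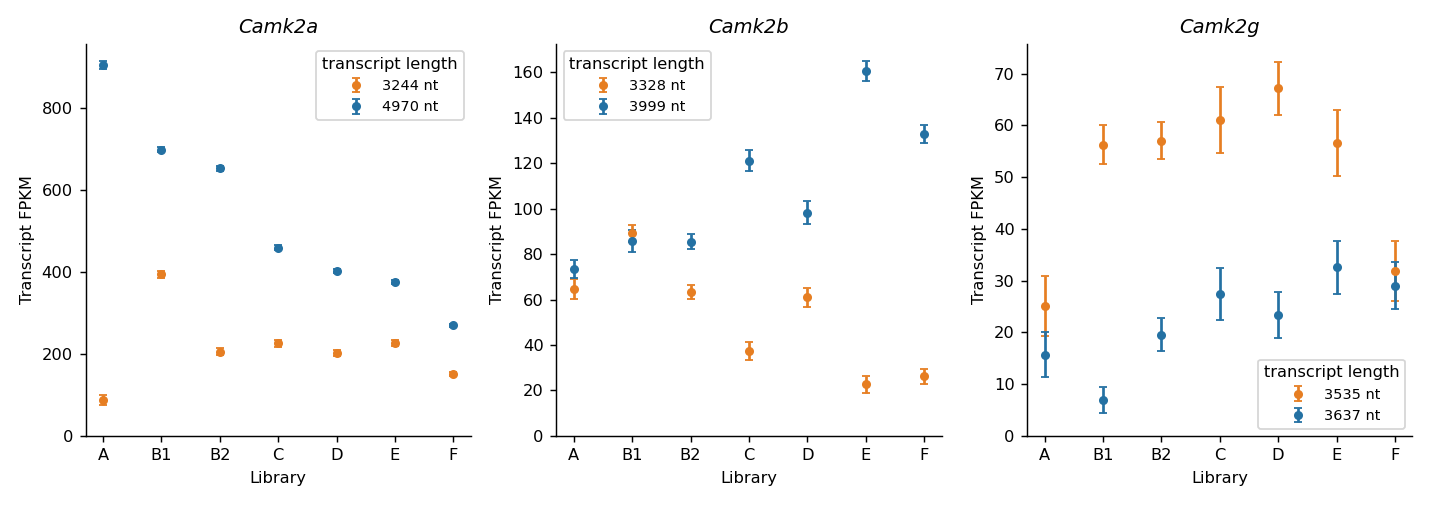
FPKM of the 2 main classifiable transcripts of Camk2a, Camk2b and Camk2g in the 7 libraries, with deposited 95% intervals and axes from 0. The long Camk2a form goes from 904 FPKM in A to 269 in F, and the 2 Camk2b forms are 73.3 and 64.7 FPKM in A and 133 and 26.3 FPKM in F.

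Among the Dlgap genes, the 2173-nt form of Dlgap1, the 2901-nt form of Dlgap3 and the 511-nt form of Dlgap4 were all higher in B1 than in B2, with separate intervals. For Dlg4, the 3457-nt transcript had 188 FPKM in A, 137 in B1 and 138 in B2, then 129 in C, 98.02 in D and 125 in E, and 97.1 in F, and the 770-nt transcript had 105 FPKM in A, 85.6 in B1 and 87.6 in B2, then 69.95 in C, 90.4 in D and 102 in E, and 89.7 in F. For Dlgap1, the 5276-nt transcript had 92.4 FPKM in A, 76.6 in B1 and 109 in B2, then 80.5 in C, 80.2 in D and 82.2 in E, and 53.7 in F, and the 2173-nt transcript had no entry in A, 77.3 in B1 and 26.9 in B2, then 29.5 in C, 47.4 in D and 52.4 in E, and 49.5 in F. For Dlgap2, the 4503-nt transcript had 8.602 FPKM in A, 16.2 in B1 and 8.77 in B2, then 10.5 in C, 10.4 in D and 12.1 in E, and 11.9 in F, and the 2271-nt transcript had 11.5 FPKM in A, 5.895 in B1 and 7.798 in B2, then 4.99 in C, 3.97 in D and 4.44 in E, and 1.29 in F. The short Dlgap2 form was highest in A and lowest in F, whereas the long form was highest in B1. For Dlgap3, the 3884-nt transcript had 196 FPKM in A, 150.3 in B1 and 77.2 in B2, then 58.7 in C, 59.3 in D and 61.5 in E, and 57.95 in F, and the 2901-nt transcript had 45.02 FPKM in A, 99.5 in B1 and 34.2 in B2, then 33.9 in C, 37.8 in D and 37.99 in E, and 44.9 in F. For Dlgap4, the 4609-nt transcript had 53.6 FPKM in A, 57.3 in B1 and 37.2 in B2, then 48.02 in C, 44.8 in D and 40.4 in E, and 36.7 in F, and the 511-nt transcript had 19.3 FPKM in A, 82.7 in B1 and 17.1 in B2, then 26.2 in C, 36.5 in D and 33.02 in E, and 35.1 in F. The main Dlgap3 form was highest in A and next highest in B1, and the short Dlgap4 form was highest in B1.

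Shank1 and Magi2 each had a form with no entry in A. For Shank1, the 7605-nt transcript had 146 FPKM in A, 104 in B1 and 62.1 in B2, then 58.3 in C, 56.1 in D and 55.6 in E, and 52.1 in F, and the 6649-nt transcript had no entry in A, 34.2 in B1 and 13.2 in B2, then 16.7 in C, 16.5 in D and 17.96 in E, and 17.3 in F. For Shank2, the 7666-nt transcript had 12.5 FPKM in A, 14.6 in B1 and 14.6 in B2, then 16.1 in C, 16.7 in D and 17.99 in E, and 12.6 in F, and the 8169-nt transcript had 7.73 FPKM in A, 14.4 in B1 and 10.5 in B2, then 10.8 in C, 4.95 in D and 2.69 in E, and 1.39 in F. The 8169-nt Shank2 form was lower in each segment from C on than in B1, whereas the 7666-nt form was within 1.43-fold over B to F. For Homer1, the 2468-nt transcript had 5.901 FPKM in A, 28.4 in B1 and 6.09 in B2, then 13.8 in C, 10.7 in D and 14.5 in E, and 16.4 in F, and the 2765-nt transcript had 4.73 FPKM in A, 15.3 in B1 and 14.4 in B2, then 10.996 in C, 11.4 in D and 14.03 in E, and 8.21 in F. For Magi2, the 6536-nt transcript had 13.5 FPKM in A, 16.2 in B1 and 18.3 in B2, then 17.5 in C, 18.4 in D and 22.1 in E, and 15.7 in F, and the 4375-nt transcript had no entry in A, 14.4 in B1 and 4.34 in B2, then 5.39 in C, 7.02 in D and 11.4 in E, and 11.6 in F. The short Magi2 form differed 3.32-fold between the replicates.

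Among the other kinases, Camkk2 had a minor form that was highest in B1. For Camkk2, the 2827-nt transcript had 59.6 FPKM in A, 74.1 in B1 and 65.8 in B2, then 76.6 in C, 71.96 in D and 77.1 in E, and 38.8 in F, and the 2784-nt transcript had 6.48 FPKM in A, 37.8 in B1 and 20.7 in B2, then 14.9 in C, 18.2 in D and 11.2 in E, and 7.58 in F. For Prkcb, the 2911-nt transcript had 74.3 FPKM in A, 89.6 in B1 and 112 in B2, then 123 in C, 144 in D and 165 in E, and 131 in F, and the 2557-nt transcript had 64.002 FPKM in A, 69.2 in B1 and 96.9 in B2, then 119 in C, 142 in D and 148 in E, and 103 in F. For Prkce, the 6254-nt transcript had 45.7 FPKM in A, 58.1 in B1 and 59.2 in B2, then 74.1 in C, 86.2 in D and 98.2 in E, and 90.9 in F, and the 3161-nt transcript had 49.4 FPKM in A, 24.5 in B1 and 34.5 in B2, then 35.2 in C, 44.1 in D and 51.4 in E, and 56.8 in F. Both main Prkcb forms followed the gene, and the opposite member of the pair was its 3328-nt form, which was highest in B1.

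Around these genes, 52 further postsynaptic genes were listed, of which 51 were found and 49 were classifiable. Of the 49, 13 were higher in F and 10 lower by the test of the fitted difference, against 35.5% and 6.59% of all genes, and their median difference was 0.09. After median-of-ratios scaling the counts were 3 higher and 13 lower, against 16.6% and 12.2% of all genes. The 3 with the lowest called differences were both CaMKII inhibitor proteins and an AMPA receptor auxiliary subunit. Camk2n1 measured 1265 FPKM in A, 1095 in B1 and 1259 in B2, then 641 in C, 390.5 in D and 319 in E, and 231 in F, with a fitted difference of -2.76 ± 0.27 (SE; adjusted p = 0.00147). Camk2n2 measured 108 FPKM in A, 136 in B1 and 89.1 in B2, then 56.9 in C, 35.9 in D and 25.3 in E, and 29.1 in F, with -2.49 ± 0.40 (SE; adjusted p = 0.00489). Cacng2 (stargazin) measured 49.2 FPKM in A, 44.6 in B1 and 43.5 in B2, then 35.98 in C, 33.9 in D and 26.5 in E, and 20.9 in F, with -1.21 ± 0.17 (SE; adjusted p = 0.00359). All 3 were called lower at the deep end in each of 19 other settings. Among these, the fit without A compared F with B and the fit without F compared E with A. The inhibitors of CaMKII thus declined with depth beside its alpha subunit, and Camk2n1 was 1.28 times Camk2a in A, 1.00 in B1, 1.47 in B2 and 0.55 in F.

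Frmpd4 and Iqsec1 were among those with the highest called differences. Frmpd4, a Dlg4-binding protein, measured 2.44 FPKM in A, 10.3 in B1 and 8.73 in B2, then 11.8 in C, 13.4 in D and 16.4 in E, and 14.8 in F, with a fitted difference of 2.03 ± 0.37 (SE; adjusted p = 0.00661). Iqsec1, an Arf exchange factor, measured 28.2 FPKM in A, 102 in B1 and 46.6 in B2, then 108 in C, 109 in D and 98.8 in E, and 106 in F, with 1.53 ± 0.43 (SE; adjusted p = 0.0283), although B2 was 2.20-fold under B1 and the call was lost in 7 of 19 other settings.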

How the data were processed

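Polyadenylated RNA of 7 libraries from S1 was analysed; the 12 samples of dorsal and lateral cortex were not analysed here. Per the labels and the study's methods, the authors mapped paired reads of 50 nt to mm9 with TopHat 1.0.13 (F also held longer reads) and estimated FPKM with Cufflinks 0.8.3 on Ensembl models; the deposited FPKM values carry 95% intervals, and the deposited coverage of transcripts (a signal) served only to estimate depth. Read length thus differed between F and the other libraries, and its part in the F values was not tested. The depth of F was also estimated with 50 bases per end. Features without an entry were set to 0. Transcripts were assigned to genes by identifier or position, and for Dlgap1 the assigned transcripts gave 0.849 to 1.0 of the gene's FPKM. GENCODE M21 was used by identifier alone, for symbols, transcript lengths and median GC content, available for 94.7% of classifiable genes.

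Shares divide the FPKM in each segment by the total over 6 segments, after averaging B1 and B2. Trends were fitted with limma 3.58.1 (R 4.3.3) on log2(FPKM + 0.1) over all 11409 classifiable genes, with linear and quadratic terms in segment position (4 residual degrees of freedom), and Benjamini-Hochberg adjusted p-values were read at 0.05, for the F-test and for the fitted difference F minus A. In the fit without A this difference was F minus B, and in the fit without F it was E minus A. P-values measure the spread of libraries that share mice around the fitted curve. Only B was replicated, so this spread holds the gap between B1 and B2 and the departures of single libraries from a smooth curve. An abrupt change between segments therefore adds to the error. Data simulated for this trend over 11409 genes had noise drawn independently for each gene and library. The difference was called in the right direction for 4% of genes changed 1.5-fold, 30% at 2-fold, 82% at 4-fold and 88% at 8-fold. The F-test called 0%, 8%, 52% and 80% of the same genes. Only 50 genes were changed at each fold, whereas the real fit called 4049 genes higher and 752 lower in F. With few changed genes the adjusted threshold is stricter, so these shares can understate what the real fit would call. A missing call is still no evidence of an unchanged gene. The difference was also called for 5 unchanged genes, a count that does not cover shifts shared by many genes, such as those that go with GC content. Summaries used Python 3.11.15.

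The 33 genes and all lists were chosen with earlier results of these data known. In every family, FPKM per library is given for the member with the highest mean and those with the lowest and highest fitted difference, for members past the F-test and, as transcripts, for members with opposite isoforms. The values of 1 further gene that the rule named are not reported here. Camk2b, the ratios and other values outside that rule were chosen after values were seen. The 103 alternatives written at the outset and 6 added after seeing the data (transcripts of at least 1000 nt, and isoforms listed in both libraries) varied the pseudocount, filters, scaling, GC content, replicates and libraries.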

Additional observations from a re-analysis of the deposited data

How the results depend on the processing

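No paired analysis was possible because every segment but B has 1 library, so the groups compared share fewer than 2 replicate numbers. Under median-of-ratios scaling 3 genes were higher in F and 9 lower instead of 7 and 5, the scaffold median moved to -0.52 and the kinase median to -0.17; scaling without mitochondrial genes left 3 higher (21.2% of all genes), with a kinase median of 0.022; GC adjustment left 1 higher, with a scaffold median of -0.49. The limit at 25% of the mean left 4 higher (36.2% of all genes), in 24 genes tested. The limit at 100% of the mean gave 9 higher (32.4% of all genes), in 33 genes tested. A filter at a mean of at least 1 FPKM gave 9 higher too (35.1%), and Camk2d and Grip1 were the additions in both. Without a filter 9 trends were called instead of 15 (25.4% of all genes), and the linear trend alone called 5 (18.7%), with 3 higher (16.1%) and 2 lower (2.63%). With B1 and B2 averaged 9 were higher (40.6% of all genes) and 8 lower (9.55%). Leaving out each library in turn gave 2 to 20 trends, 2 to 10 genes higher and 2 to 6 lower, with kinase medians of -0.19 to 0.38. The lowest counts, 2 of each, came without A, where the difference is F minus B. Without F the difference is E minus A. The shares of all genes were lowest without A too: 10.1% for the trend, 12% higher and 3.73% lower. They were highest without B1, at 57.9%, 43.7% and 10.9%. These counts thus moved with the calls over all genes, and their range is no result about these genes alone. Over all transcripts listed, where genes no longer needed 2 classifiable transcripts, 25 genes had opposite isoforms instead of 16 of 19. The share over all genes is not given for that setting, so the larger count is no result about these genes. The cause of these changes was not tested.

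Of 695 refits of 37 genes, 603 gave the same call and direction, 55 lost the call, 18 gained one and 19 turned sign, none of a gene whose fitted difference was called as deposited. Under median of ratios Dlg3 turned to -0.029, Homer1 to -0.35 and Camk2b to -0.17; without mitochondrial genes Homer1 turned to -0.16; with GC adjusted Dlg3 turned to -0.22, Homer1 to -0.87 (called) and Magi1 to -0.19. Dlgap1 turned to 0.047 with B averaged, and over transcripts of at least 1000 nt Baiap2 was at 0.40. Leaving out each library in turn gave ranges that cross 0 for Dlgap1 (-0.35 to 0.27), Homer1 (-0.32 to 0.37), Homer3 (-0.34 to 1.16), Baiap2 (-0.73 to 1.03), Camk2g (-0.14 to 0.84), Camk4 (-0.52 to 1.38), Camkk1 (-0.33 to 0.072) and Camkk2 (-0.93 to 0.23), of which only Baiap2 without A was called with its sign turned. All ends of these ranges but the low end of Camkk1 came from the fits without A or without F. Those fits compared F with B and E with A, so the ranges do not describe the spread of F minus A alone. The same holds for the turned signs that came from these fits. Camk2a, Camk2n1, Camk2n2 and Cacng2 kept their calls in all 19 alternatives.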
